A study of Mus musculus with 2 samples.

Results

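The Nr4a and Egr early genes are 6 transcription factors and 2 surface proteins that T cells switch on soon after the T cell receptor (TCR) is engaged: Nr4a1, Nr4a2, Nr4a3, Egr1, Egr2 and Egr3, with Cd69 and Cd83. They were taken by name, as 8 of the 31053 genes in the matrix, and were followed by CD4 and CD8 class, together with cytokines, and beside the Fos, Jun and heat shock genes that tissue dissociation is known to induce. The cells were donor T cells of the colon in graft-versus-host disease, taken 21 days after lethally irradiated Balb/c mice had received C57BL/6 (B6) bone marrow cells and splenocytes that included alpha beta T cells. Cells of 5 recipients were pooled, lamina propria cells were released with a dissociation kit, and H2-Kb+ TCR-B+ cells were sorted. The pool gave 1 droplet library of 5′ transcript ends and 1 TCR library from the same cDNA, so the study has 1 sample, and no comparison between animals or with a host without disease could be made. The titles name CD4 T cells, yet cells with CD8 transcripts were the larger class.

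Nr4a proteins are orphan nuclear receptors and Egr proteins are zinc finger factors. Both are made within minutes of TCR and calcium signals, and both restrain T cells as well as marking their activation: Egr2 and Egr3 induce inhibitors of TCR signalling, and Nr4a factors are tied to tolerance and exhaustion. Cd69 holds T cells in tissue by removing the exit receptor S1pr1 from the surface, and Cd83, best known from dendritic cells, also appears on activated CD4 T cells. Fos, Jun and heat shock genes follow TCR signals too, but warm enzyme digestion of tissue also switches them on, and Egr1 and Nr4a1 can respond to the same handling.

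RefSeq promoters were read for 4 members and are shown, and those of Egr1, Egr3, Cd69 and Cd83 were not examined. Promoters of the 3 Nr4a genes each hold 4 half-sites of the cAMP response element (CRE), the site of CREB and ATF factors. The windows run from 250 bases before to 50 bases after a transcription start, on build GRCm38.p6, and capitals mark the CRE half-site TGACG, read on both strands (CGTCA on the other), and in Egr2 also a CArG box, the site of serum response factor. The windows lie at chr15:101266596-101266895 on the plus strand for Nr4a1, chr2:57123954-57124253 on the minus strand for Nr4a2, chr4:48045055-48045354 on the plus strand for Nr4a3 and chr10:67537619-67537918 on the plus strand for Egr2. Egr2 has 5 listed starts, and the 3 windows with the most marked sites tie at 2 half-sites and 1 CArG box. The window of 1 of these 3 is shown, and its positions are counted from that start.
Nr4a1: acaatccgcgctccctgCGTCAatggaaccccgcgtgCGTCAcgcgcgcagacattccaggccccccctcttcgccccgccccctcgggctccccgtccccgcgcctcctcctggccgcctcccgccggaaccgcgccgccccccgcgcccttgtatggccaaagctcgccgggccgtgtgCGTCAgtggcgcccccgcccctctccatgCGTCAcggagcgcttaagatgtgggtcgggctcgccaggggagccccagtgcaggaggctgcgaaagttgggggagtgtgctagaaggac
Nr4a2: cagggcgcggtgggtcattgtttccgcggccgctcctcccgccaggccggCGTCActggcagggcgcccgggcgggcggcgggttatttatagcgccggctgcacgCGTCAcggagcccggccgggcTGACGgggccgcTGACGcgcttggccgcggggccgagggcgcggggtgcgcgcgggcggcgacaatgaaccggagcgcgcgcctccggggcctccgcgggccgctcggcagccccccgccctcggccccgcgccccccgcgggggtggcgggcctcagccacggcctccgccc
Nr4a3: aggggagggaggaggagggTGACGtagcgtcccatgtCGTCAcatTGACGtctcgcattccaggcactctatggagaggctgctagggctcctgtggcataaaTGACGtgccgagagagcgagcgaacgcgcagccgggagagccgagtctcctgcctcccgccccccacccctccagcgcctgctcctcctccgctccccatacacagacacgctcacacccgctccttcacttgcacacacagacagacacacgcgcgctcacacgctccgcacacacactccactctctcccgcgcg
Egr2: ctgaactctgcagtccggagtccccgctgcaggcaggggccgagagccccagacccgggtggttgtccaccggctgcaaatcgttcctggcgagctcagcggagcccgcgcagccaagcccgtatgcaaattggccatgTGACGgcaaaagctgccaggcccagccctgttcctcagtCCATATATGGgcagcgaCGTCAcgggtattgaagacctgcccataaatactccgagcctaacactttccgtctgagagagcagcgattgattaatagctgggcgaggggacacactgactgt

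Half-sites began at -233, -213, -69 and -40 from the start in Nr4a1, at -200, -144, -123 and -111 in Nr4a2, and at -231, -213, -205 and -147 in Nr4a3. Egr2 had 2, at -111 and -55. At least 1 CRE half-site occurred in 20.8% of 32851 mouse promoter windows of this length, and 4 or more occurred in 76 of them (0.231%). The CArG box of Egr2 was found in 1.63% of windows. The Egr motif GCGNGGGCG, in 5.55% of windows, was present once in Nr4a1 and once in Nr4a2. No full CRE TGACGTCA (1.79% of windows), AP-1 site TGANTCA (7.81%) or NFAT core GGAAAA (23.4%) lay in these 4 windows, which says only that these letters are not there. Another listed Egr2 window, not shown, held 1 NFAT core and 1 CArG box but no half-site. The most upstream Egr2 window held none of these. Matches are descriptions of sequence and not of binding. Of the other members, Egr1 lies on chromosome 18, Egr3 on 14, Cd69 on 6 and Cd83 on 13.

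Of 5348 barcodes 5333 were kept, with at least 500 genes and at most 10% mitochondrial UMIs (unique molecular identifiers, each counting 1 captured transcript). Kept cells held at least 2549 UMIs and a median of 4800 UMIs and 1804 genes, and 5133 of them shared their barcode with a TCR contig. The CD4 class (Cd4 but no Cd8a or Cd8b1 UMI) held 1861 cells (34.9%), and the CD8 class (Cd8a or Cd8b1 but no Cd4 UMI) 2391 (44.8%). Another 301 cells had both, and 780 had neither. Cd3e, a subunit of the TCR complex, had a UMI in 98.7% of CD4 class and 98.9% of CD8 class cells. Levels below are summed UMIs per 10000 UMIs of a group with exact Poisson intervals, shares are cells with a UMI after each cell was thinned to 2000 UMIs with Clopper-Pearson intervals, and ratios of levels carry exact conditional binomial intervals. All are 95% intervals and cover counting error only: cells of 1 pool are not replicates, so no p-value is given. A ratio is called 2-fold where the interval bound nearest 1 is at or past 2-fold, for genes with at least 50 UMIs.

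Of the 8 early genes, 7 were higher in CD4 class cells and Nr4a2 was lower. Nr4a1 reached 6.64 UMIs per 10000 (6.49 to 6.80) in CD4 class cells and 4.20 (4.09 to 4.30) in CD8 class cells, a ratio of 1.58 (1.53 to 1.64), and was seen in 57.4% (55.2 to 59.7) of CD4 class and 42.0% (40.0 to 44.0) of CD8 class cells. Nr4a2 went the other way, at 2.60 (2.51 to 2.70) in CD4 class cells and 3.75 (3.65 to 3.85) in CD8 class cells, a ratio of 0.694 (0.663 to 0.726), with 32.0% (29.9 to 34.2) and 41.7% (39.7 to 43.7) of cells. The Nr4a genes thus did not move as a block: CD4 class cells held more Nr4a1 and CD8 class cells more Nr4a2. Nr4a3 was at 1.14 (1.08 to 1.21) in CD4 class cells and 0.604 (0.565 to 0.645) in CD8 class cells, 1.89-fold higher (1.73 to 2.06).

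Among the Egr genes the rarer members differed more. Egr1 was at 0.832 (0.779 to 0.887) in CD4 class cells and 0.649 (0.608 to 0.691) in CD8 class cells, a ratio of 1.28 (1.17 to 1.40), while its shares of cells, 11.8% (10.3 to 13.3) and 10.3% (9.14 to 11.6), overlapped. Egr2 had 126 UMIs in CD4 class cells and 48 in CD8 class cells, a ratio of levels of 3.54 (2.52 to 5.05). Egr3 had 82 and 29 UMIs, a ratio of 3.81 (2.47 to 6.04), with 29.3% of the CD4 class UMIs in 1 cell. Egr2 and Egr3 were thus found in few cells, 1.45% and 1.29% of the CD4 class against 0.418% and 0.209% of the CD8 class, and their values rest on these cells.

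The surface proteins followed the CD4 class as well. Cd69 was at 4.18 (4.06 to 4.30) in CD4 class cells and 3.29 (3.20 to 3.38) in CD8 class cells, a ratio of 1.27 (1.22 to 1.32), with a UMI in 45.7% (43.4 to 48.0) and 39.4% (37.5 to 41.4) of cells. Cd83 was at 0.324 (0.291 to 0.359) in CD4 class cells and 0.0954 (0.0804 to 0.112) in CD8 class cells, a ratio of 3.40 (2.79 to 4.15), in 3.87% (3.04 to 4.85) and 1.05% (0.678 to 1.54) of cells. Without thinning, CD4 class and CD8 class shares were 78.7% and 65.4% for Nr4a1, 48.4% and 64.8% for Nr4a2, 38.4% and 24.7% for Nr4a3, 24.0% in both for Egr1, 70.2% and 64.1% for Cd69, and 6.77% and 2.26% for Cd83. Egr2, Egr3 and Cd83 passed 2-fold, as did 2.7% of 10133 genes, and 7 of 8 members had an interval above 1, as did 19.3% of genes. Nr4a2 lay below 1, as did 24% of genes. With 1 cell kept per clonotype Egr1 turned to a log2 ratio of -0.013, Cd83 was at a log2 ratio of 0.70 against 1.76 with all cells, and Egr3 at 3.10 against 1.93. That setting keeps far fewer cells, and the part of this in the shifts was not tested. Fos, which dimerises with Jun to form AP-1, was at 2.28 in CD4 class cells and 1.43 in CD8 class cells, while Jun (2.52 in both) and Hspa1a (0.302 and 0.312) were close.

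**Figure D1:**
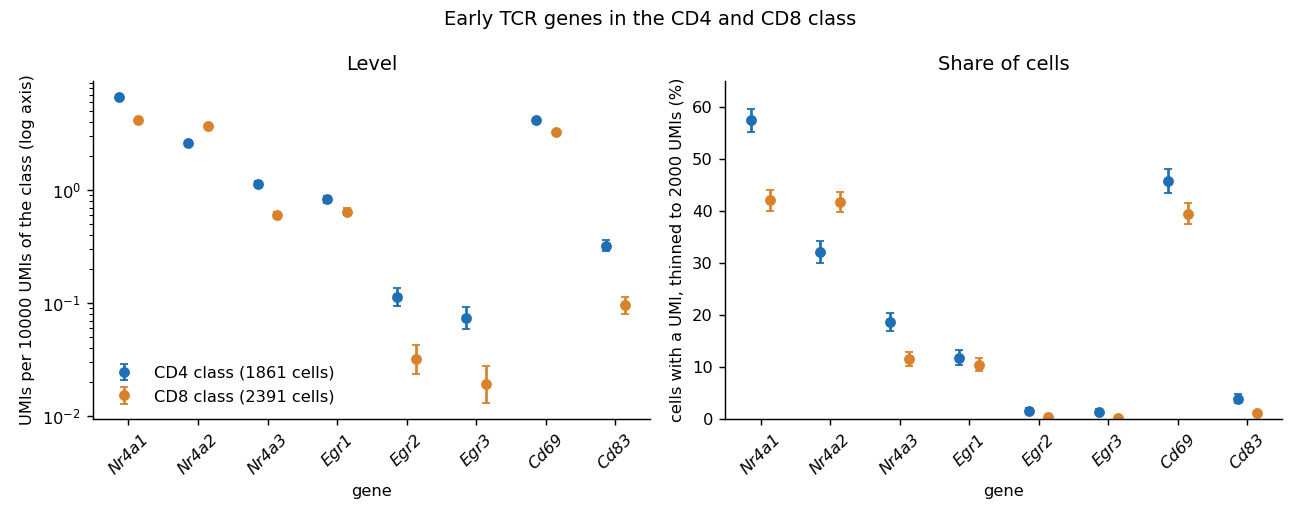
Levels (left, UMIs per 10000 UMIs, log axis) and shares of cells with a UMI after thinning to 2000 UMIs (right, percent) of the 8 genes in CD4 class cells (left point of each pair) and CD8 class cells; bars are 95% counting intervals. Nr4a2 alone is lower in CD4 class cells, at 2.60 against 3.75 UMIs per 10000, and Egr2, Egr3 and Cd83 have the widest gaps.

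Leiden clustering without the 8 genes gave 14 clusters, named "-like" only from marker lists and otherwise given by number and leading genes. These names come from this clustering and the study may have used others. Nr4a1 was highest in the Th2-like cluster 3, at 10.2 (9.84 to 10.7), then in cluster 6 (Krt17, Dusp14; mostly CD4 class; 4 of 6 follicular helper markers at 2-fold, Cxcr5, Bcl6, Slamf6 and Il21) at 8.77 (8.38 to 9.17) and the Treg-like cluster 13 at 8.29 (7.36 to 9.29), which overlapped with cluster 6. It was 4.49 and 4.74 in the CD8 cytotoxic-like clusters 1 and 5, whose intervals overlapped, and 3.53 (3.29 to 3.78) in the Th17-like cluster 7. Nr4a2 had another order: its highest level was in cluster 8 (Penk, Xcl1; 262 of 382 cells of the CD8 class), at 7.36 (7.02 to 7.72), followed by cluster 6 at 4.52 (4.24 to 4.81), whose interval overlapped those of clusters 10 (4.26) and 5 (4.20). Nr4a3 was highest in cluster 6, at 1.84 (1.66 to 2.03), followed by clusters 3 (1.44), 13 (1.36) and 7 (1.32), which overlapped one another. Th17-like cells thus had low Nr4a1 and Nr4a2 but not low Nr4a3.

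The lowest Nr4a levels were in cluster 11 (148 cells, 105 of them of the CD8 class), which was led by Hspa1a and by the integrins Itgae and Itga1 of tissue-resident cells, and which had the same 4 of 8 CD8 cytotoxic markers at 2-fold as cluster 1. It had 0.790 (0.584 to 1.04) of Nr4a1, 0.548 (0.380 to 0.766) of Nr4a2 and 1 UMI of Nr4a3 in all. Its Egr1 level of 1.03 (0.795 to 1.32) and its Cd69 level of 4.87 (4.34 to 5.45) were not low, and its Jun (5.51) and Hspa1a (2.23) were higher than in all cells together. Its median depth was 3687 UMIs. In this cluster Jun and Hspa1a were thus high, and Cd69 was not low, beside low Nr4a levels. Summed over the 6 factors, the level spanned 16.3 in cluster 6 to 2.43 (2.06 to 2.86) in cluster 11, with 16.0 in cluster 3, 15.2 in cluster 8 and 6.82 in cluster 7.

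Among T cell clusters, Egr2 and Cd83 had their highest levels in clusters 6 and 8. Egr2 was at 0.262 (0.200 to 0.336) in cluster 8 and 0.224 (0.166 to 0.296) in cluster 6, against at most 0.0568 in the other T cell clusters. Cd83 was at 1.02 (0.890 to 1.16) in cluster 6 and 0.579 (0.485 to 0.685) in cluster 8. It had no UMI in any of the 427 cells of the Th17-like cluster. There 3 cells would make a share of 0.703%, which is not the bound of an interval. The absence of UMIs at this depth sets no limit on the share of cells that expresses Cd83. Cd69 had a different order, highest in cluster 3 at 7.16 (6.82 to 7.5) and at 3.63 in cluster 6 and 2.64 in cluster 8. The macrophage-like cluster 12 (68 cells; all 5 fibroblast markers were also at 2-fold) was highest for Egr1 (3.06, 38.0% of it in 1 cell), Egr2 (0.376), Cd83 (1.79) and Fos (11.8); without its cells 7 of 8 members still had a higher level in CD4 class cells. Egr3 had few UMIs in every cluster, from 0 in clusters 11 and 14 to 52 in the cycling-like cluster 2, where 46.2% came from 1 cell.

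**Figure D2:**
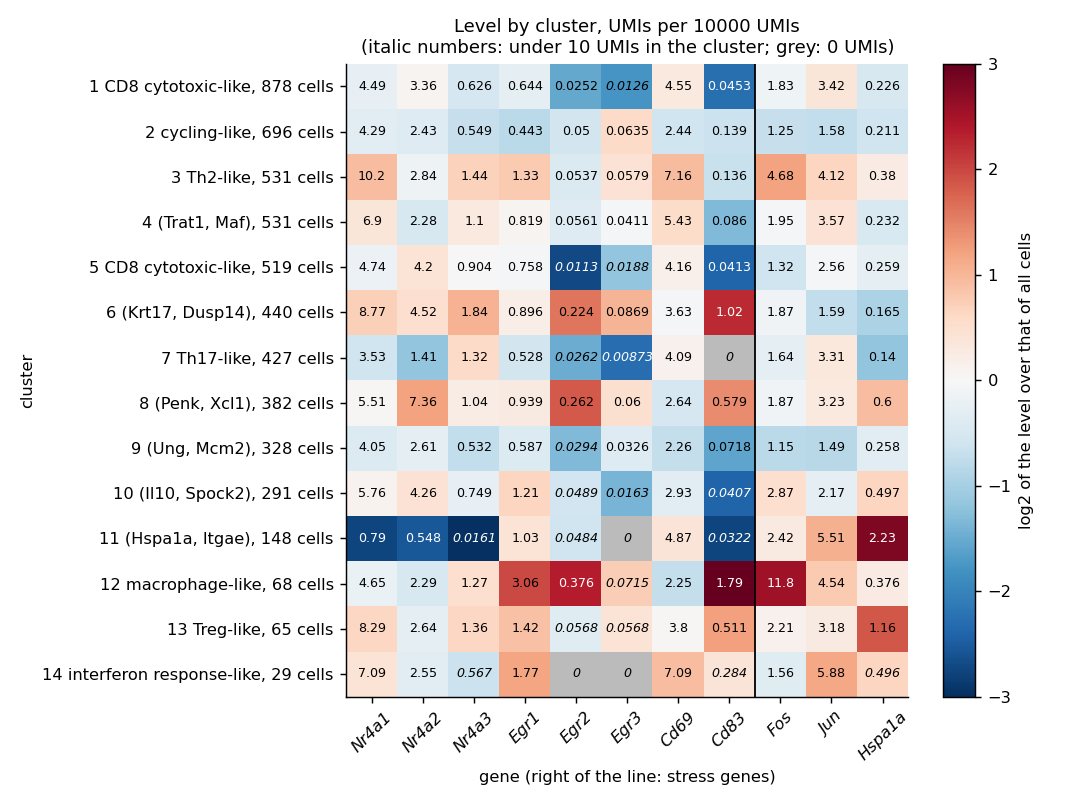
Levels of the 8 genes and of Fos, Jun and Hspa1a (columns) in 14 clusters (rows), printed as UMIs per 10000 UMIs; colour is the log2 of the level over that of all cells, italics mark values from under 10 UMIs and grey marks 0. Nr4a1 is highest in cluster 3 (10.2), Nr4a2 in cluster 8 (7.36), and cluster 11 combines the highest Hspa1a (2.23) with the lowest Nr4a1 (0.790).

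Where a cluster held both classes, Nr4a1 and Nr4a2 kept their opposite order. In cluster 8, with 73 CD4 class and 262 CD8 class cells, Nr4a1 was at 8.77 in CD4 class cells and 4.42 in CD8 class cells (ratio 1.98, 1.75 to 2.25), and Nr4a2 at 4.59 and 8.40 (0.546, 0.470 to 0.633). In the cycling-like cluster 2 the ratios were 1.28 (1.19 to 1.38) for Nr4a1 and 0.715 (0.645 to 0.793) for Nr4a2, and in cluster 9 (Ung, Mcm2) they were 1.15 (1.0 to 1.32) and 0.561 (0.454 to 0.689). Cd83 was 10.1-fold higher (6.42 to 16.5) in CD4 class cells within cluster 8, at 1.68 against 0.166, but its ratio of 0.847 (0.532 to 1.33) in cluster 2 included 1. Egr2 was 6.19-fold higher (2.62 to 16.9) in cluster 2 and 6.55-fold higher (3.60 to 12.3) in cluster 8, while its ratio in cluster 9 was 0.818 (0.0829 to 4.30). Egr1 had ratios of 2.45 (1.81 to 3.29) in cluster 8, 1.17 (0.923 to 1.48) in cluster 2 and 0.680 (0.437 to 1.03) in cluster 9.

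Among cells with an early factor, more had 1 than several. Among CD4 class cells 480 (25.8%) had none of the 6 factors after thinning, 727 had 1, 452 had 2, 166 had 3, and the rest had more. Among CD8 class cells 794 (33.2%) had none, 865 had 1, 544 had 2, 168 had 3, and the rest had more. Cells with UMIs of at least 2 different factors are called early-positive below, and cells with none early-negative. The early-positive share was 35.1% (33.0 to 37.4) in CD4 class cells and 30.6% (28.8 to 32.5) in CD8 class cells, and among clusters it ran from 4.73% (1.92 to 9.50) in cluster 11 and 19.7% (16.0 to 23.8) in cluster 7 to 48.2% (43.1 to 53.3) in cluster 8 and 49.8% (45 to 54.5) in cluster 6. The shares follow depth: with no thinning they were 63.3% in CD4 class cells and 60.7% in CD8 class cells. Without thinning, more cells thus had several factors than 1, the reverse of the order above.

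Members were found together in the same cells. For the CD4 class 12 of 28 member pairs were co-detected above their share in cells without the first gene, with separate intervals, and none lay below; across all genes paired with any member 1.28% lay above. For the CD8 class 7 of 28 pairs lay above, against 1.15% of all such pairs, and again none below. Nr4a1 and Nr4a2, which differ between the classes, were found together in both: Nr4a2 was seen in 37.0% of Nr4a1-positive and 25.3% of Nr4a1-negative CD4 class cells, and in 51.0% and 34.9% of CD8 class cells. Nr4a3-positive CD8 class cells had Nr4a1 in 63.5% against 39.3% of Nr4a3-negative cells, and Nr4a2 in 63.1% against 38.9%. The Egr genes were tied to each other in CD4 class cells: Egr2 was seen in 5.48% of Egr1-positive and 0.914% of Egr1-negative cells, and Egr3 in 22.2% of the 27 Egr2-positive against 0.981% of Egr2-negative cells.

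The 2 surface proteins were set beside the factors in turn. Cd69-positive CD4 class cells had Nr4a1 in 62.9% against 52.9% of Cd69-negative cells and Egr1 in 16.0% against 8.22%, while Nr4a2 (30.9% against 33.0%) and Cd83 (3.41% against 4.26%) did not differ beyond their intervals. Cd83-positive CD4 class cells (72 cells) had Nr4a2 in 47.2% against 31.4% of Cd83-negative cells and Nr4a3 in 31.9% against 18.1%. They also had the checkpoint receptor Pdcd1 in 45.8% against 23.6% and Tnfrsf9 (4-1BB) in 41.7% against 22.2%. In CD8 class cells these receptors had lower shares in Cd69-positive cells: they had Pdcd1 in 42.2% against 51.1% and Tnfrsf9 in 22.2% against 28.4% of Cd69-negative cells.

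Cytokines were seen more often with several members. In CD4 class cells Csf2, which encodes GM-CSF, was seen in 16.6% of Nr4a2-positive and 6.72% of Nr4a2-negative cells and in 36.1% of Cd83-positive and 8.83% of Cd83-negative cells. It was also higher with Nr4a1 (13.6% against 4.92%), Nr4a3 (14.7% against 8.78%) and Egr2 (25.9% against 9.65%), and was seen in 11.8% of Cd69-positive and 8.32% of Cd69-negative cells, whose intervals overlapped. Ifng, the type 1 cytokine, was seen in 48.1% of Egr2-positive against 22.0% of Egr2-negative cells, in 50% of the 24 Egr3-positive against 22.0% of Egr3-negative cells, and in 22.2% of Cd83-positive against 22.4% of Cd83-negative cells. It was also seen in 30.1% of Egr1-positive against 21.4% of Egr1-negative cells and in 26.7% of Cd69-positive against 18.8% of Cd69-negative cells. Tnf was seen in 14.6% of Egr1-positive against 7.06% of Egr1-negative cells, in 25% of Egr3-positive against 7.73% of Egr3-negative cells, and in 10.7% of Cd69-positive against 5.64% of Cd69-negative cells. The Th2 cytokine Il4 was seen in 3.55% of Nr4a1-positive and 0.758% of Nr4a1-negative cells. By separate intervals Csf2 was thus higher with the 3 Nr4a genes, Egr2 and Cd83, and Tnf with Egr1, Egr3 and Cd69. For Egr2 and Egr3 this sorting rests on few cells and does not set them apart. Csf2 was seen in 25% of Egr3-positive against 9.69% of Egr3-negative cells, with overlapping intervals. Tnf was seen in 18.5% of Egr2-positive against 7.80% of Egr2-negative cells, which overlapped too. Whether cytokine partners differ between members was not tested. Cd83-positive cells also had the epithelial growth factor Areg in 51.4% against 22.0% and the ligand Tnfsf11 (RANKL) in 59.7% against 27.7%. Among CD8 class cells Ifng was seen in 28.5% of Nr4a1-positive against 20.6% of Nr4a1-negative cells and in 32.2% of Cd69-positive against 18.4% of Cd69-negative cells.

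Dissociation genes were seen with several members as well. Jun was seen in 38.9% of Cd69-positive and 18.6% of Cd69-negative CD4 class cells, and in 39.8% and 20.3% of CD8 class cells. Egr1-positive CD4 class cells had Jun in 38.4% against 26.5% of Egr1-negative cells, Fosb in 32.0% against 18.8%, and the heat shock gene Hspa1b in 5.48% against 1.34%. Nr4a2-positive CD4 class cells had Jun in 23.5% against 30% of Nr4a2-negative cells, a lower share with separate intervals, and Fos in 25.7% against 27.1%. Fos was seen in 27.8% of Cd83-positive and 26.6% of Cd83-negative cells, and in 26.0% of Nr4a3-positive and 26.8% of Nr4a3-negative cells. Cd69, Egr1 and Nr4a1 (Fos in 29.4% of positive against 23.0% of negative cells) thus had higher shares of Fos or Jun in CD4 class cells, and those with Nr4a2, Nr4a3 or Cd83 were lower or overlapped. Other genes of the list did go with these members: Nr4a2-positive CD4 class cells had Jund in 84.4% against 74.1% and Junb in 97.5% against 94.4% of Nr4a2-negative cells, and Cd83-positive ones had Dusp1 in 61.1% against 45.6% of Cd83-negative cells. Nr4a3-positive CD8 class cells had Jun in 35.4% against 27.0% and Fosb in 18.2% against 11.5% of Nr4a3-negative cells. Differences between members were not tested here either.

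To set the early genes beside this stress signal, each class was split at its median of summed UMIs over 26 Fos, Jun, heat shock and related genes, none of them a member. Several of these genes, such as Junb and Zfp36, also follow TCR signals. Stress-high cells had higher levels of 7 of 8 members in CD4 class cells, where 14% of 8917 genes had an interval above 1, and of all 6 members with 50 UMIs in CD8 class cells, where 13.4% of 9345 genes did. Nr4a1 was at 9.75 in stress-high and 4.61 in stress-low CD4 class cells (ratio 2.11, 2.02 to 2.21) and at 6.22 and 2.72 in CD8 class cells (2.29, 2.17 to 2.41). Egr1 had ratios of 3.0 (2.61 to 3.45) and 2.26 (1.98 to 2.58), and Cd69 of 2.42 (2.28 to 2.57) and 2.50, in the CD4 and CD8 class. These compare with 4.09 for Fos and 8.17 for Hspa1a in CD4 class cells, which set the split. Nr4a2 had the lowest ratio among members in CD8 class cells, 1.56, and 1.62 (1.51 to 1.75) in CD4 class cells, and Egr3 did not differ beyond counting error in CD4 class cells (1.2, 0.752 to 1.89). Past 2-fold were 3 members in CD4 class cells (0.46% of genes) and 2 in CD8 class cells (0.332%). Stress-high cells were shallower, with median UMIs of 4284 against 5406 in CD4 class cells and 4453 against 5324 in CD8 class cells, and macrophage markers summed to 3.15 against 1.65 UMIs per 10000 in CD4 class cells and 1.0 against 1.66 in CD8 class cells; their part in these ratios was not tested.

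Split by 10 heat shock genes alone, the Nr4a genes and Cd69 moved little. Among CD4 class cells 6 of 8 members had an interval above 1 (11.2% of genes), but none passed 2-fold (0.0897% of genes): Nr4a1 was at 7.32 in heat shock-high and 5.93 in heat shock-low cells (1.23, 1.18 to 1.29), Nr4a3 at 1.14 in both, and Cd69 at 4.45 and 3.89 (1.14, 1.08 to 1.21). Egr1 was the exception among the abundant members, at 1.09 and 0.554 (1.98, 1.72 to 2.27), and the rare Egr2 and Egr3 had ratios of 2.11 (1.43 to 3.16) and 3.36 (1.97 to 6.02). For the CD8 class 3 of 6 members lay above (15.8% of genes), with Nr4a1 at a ratio of 1.14, Egr1 at 1.19 and Cd83 at 2.41 (1.67 to 3.51). Split by Fos and Jun family genes alone, all 8 members lay above in CD4 class cells (14.1% of genes), with Cd83 at 3.82 (3.02 to 4.86) and Nr4a1 at 2.10 (2.0 to 2.20), and all 6 in CD8 class cells (12.6%). For the CD4 class Nr4a1, Nr4a2, Nr4a3, Egr1, Cd69 and Cd83 thus had higher ratios in the Fos and Jun split than in the heat shock split, with intervals apart, and Egr2 and Egr3 had overlapping ones.

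A split by cytokine detection, added after the data were seen, ordered the members differently. Cytokine-positive cells had a thinned UMI of Ifng, Tnf, Il2 or Csf2 (653 of 1861 CD4 class and 677 of 2391 CD8 class cells), and all 8 members were higher in them in CD4 class cells (7.75% of genes). Egr3 was at 0.147 in cytokine-positive and 0.0335 in cytokine-negative cells (4.41, 2.70 to 7.42), Egr2 at 0.211 and 0.0599 (3.52, 2.41 to 5.21), Cd83 at 0.552 and 0.199 (2.77, 2.23 to 3.44) and Egr1 at 1.33 and 0.560 (2.37, 2.07 to 2.70). These 4 passed 2-fold, as did 0.258% of genes, while Nr4a1, at 8.75 and 5.49, had a ratio of 1.60 (1.52 to 1.67). Fos (1.19) and Jun (1.51) had lower ratios than Egr2, Egr3 and Cd83. The Egr2 and Egr3 intervals overlapped those of the heat shock split. Counting intervals also do not cover the large part of CD4 class Egr3 UMIs that came from 1 cell. In CD8 class cells all 6 members lay above (6.73% of genes) and none passed 2-fold (0.203%): Nr4a1 stood at 1.60, Egr1 and Cd69 at 1.80 and 1.84, beside 1.82 for Fos and 2.22 for Jun. Among stress-low CD8 class cells Nr4a2, Egr1 and Cd83 turned, to log2 ratios of -0.14, -0.12 and -0.92. Macrophage markers summed to 2.91 in cytokine-positive and 1.88 in cytokine-negative CD4 class cells, and to 0.470 and 1.73 in CD8 class cells; their part was not tested, and without the macrophage-like cluster all 8 members remained above in CD4 class cells.

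**Figure D3:**
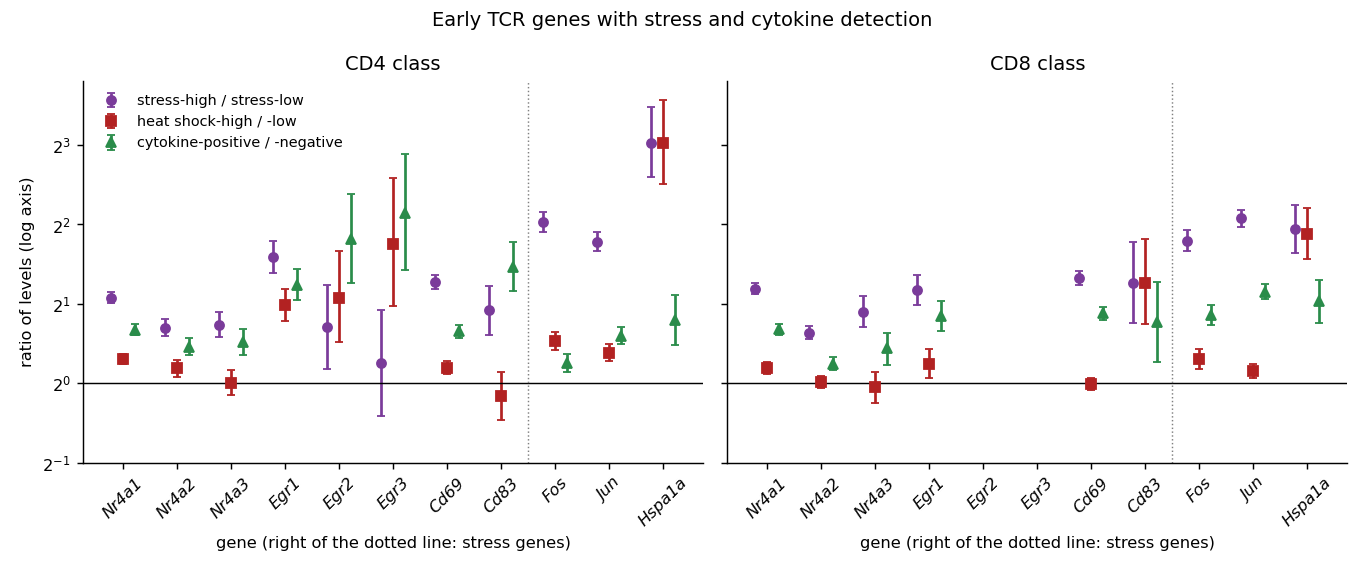
Ratios of levels (log axis) of the members, and of Fos, Jun and Hspa1a right of the dotted line, between stress-high and stress-low, heat shock-high and heat shock-low, and cytokine-positive and cytokine-negative cells of the CD4 class (left panel) and the CD8 class, where Egr2 and Egr3 had under 50 UMIs; bars are 95% counting intervals. By point estimate, Nr4a1 and Cd69 in CD4 class cells are highest in the stress split (2.11 and 2.42). Egr2 and Egr3 are highest in the cytokine split (3.52 and 4.41), with intervals that overlap those of the heat shock split.

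Cytokine and chemokine genes were seen in more early-positive than early-negative cells. Among CD4 class cells, 10 of 20 such genes had a higher share with separate intervals, as did 2.39% of 7948 genes, and none had a lower one. Csf2 was seen in 17.4% (14.6 to 20.6) of early-positive and 3.12% (1.76 to 5.10) of early-negative cells, Areg in 30.9% (27.4 to 34.6) and 16.5% (13.3 to 20.1), and Tnfsf11 in 34.1% (30.5 to 37.9) and 19.4% (15.9 to 23.2). Ifng was seen in 26.5% (23.1 to 30) of early-positive and 17.7% (14.4 to 21.4) of early-negative cells, and Il4 in 3.67% (2.37 to 5.41) and 0.833% (0.228 to 2.12). The chemokines Ccl1 (14.2% and 4.79%), Ccl3 (8.10% and 2.92%), Ccl4 (15.3% and 5.00%) and Xcl1 (7.95% and 1.46%) and the helper ligand Cd40lg (32.3% and 22.7%) made up the 10. Tnf (9.02% and 7.08%), Il10 (3.21% and 3.12%) and the Th17 cytokines Il17a (2.14% and 2.71%) and Il22 (0.765% and 2.29%) did not differ beyond their intervals. Unthinned shares were 23.1% and 7.08% for Csf2, 39.6% and 21.2% for Areg, 40.2% and 32.1% for Ifng, and 5.2% and 3.75% for Il4. Some genes were lower in early-positive cells without thinning. Tnf turned, to 17.9% and 18.8%, and Lta was at 10.1% and 11.5%, Il17a at 2.45% and 4.58%, and Il22 at 1.22% and 3.75%. Unthinned shares carry no intervals here. The share of Csf2-positive CD4 class cells went with the number of factors seen. It was 3.12%, 7.57%, 16.2% and 20.3% with 0, 1, 2 and 3 or more factors. Tnf stood at 7.08%, 7.57%, 7.08% and 13.4%, Jun at 27.1%, 27.6%, 28.1% and 30.2%, and Fos at 23.5%, 26.5%, 28.1% and 31.2%. Other genes of the stress list were not read by number of factors. Among them, Junb had a Pearson r of 0.327 with the summed factors across CD4 class cells.

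Among CD8 class cells 6 of the 20 genes were higher in early-positive cells, against 2.46% of 8621 genes. Ifng was seen in 28.6% (25.3 to 32.0) of early-positive and 18.8% (16.1 to 21.7) of early-negative cells, Areg in 15.4% (12.9 to 18.3) and 4.41% (3.09 to 6.08), Ccl4 in 48.2% and 37.2%, Ccl3 in 21.3% and 13.7%, Xcl1 in 12% and 5.79%, and Csf2 in 2.73% (1.68 to 4.19) and 0.252% (0.0305 to 0.907). Without thinning Ifng was seen in 49.7% and 34.4% and Areg in 21.3% and 6.68%. The helper cytokine Il4 gave 0.137% of early-positive and 0 of 794 early-negative CD8 class cells. Transcripts of the macrophage list, another cell type's, were seen in 7.65% of early-positive and 9.82% of early-negative CD8 class cells. Jun was seen in 22.5%, 28.6%, 30.5% and 41.0% of CD8 class cells with 0, 1, 2 and 3 or more factors, so that in CD8 class cells Jun went with the number of factors as well.

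Early-positive cells were more frequent among stress-high cells, and cytokine shares were therefore read within the stress-low cells too. Early-positive cells made up 45.6% (42.2 to 48.9) of stress-high and 26.0% (23.3 to 28.9) of stress-low CD4 class cells, and 42.1% (39.2 to 45) and 20.2% (18.0 to 22.6) of CD8 class cells. Among stress-low CD4 class cells, Csf2 was seen in 15.1% of early-positive and 2.73% of early-negative cells, Areg in 27.1% and 13.9%, Tnfsf11 in 36.4% and 17.6%, Ccl1 in 13.6% and 4.85% and Ccl4 in 12.8% and 3.94%. These 5 of 20 genes had separate intervals (1.43% of genes), while Ifng, at 20.9% and 15.5%, did not. Among stress-low CD8 class cells Areg alone was separate, at 17.7% and 4.23% (1% of genes), and Ifng was at 18.9% and 14.4%. Among stress-high cells, 4 of 20 genes were separate in CD4 class cells (0.807%) and 3 in CD8 class cells (1.2%). A UMI of Ifng, Tnf, Il2 or Csf2 was found in 48.2% (43.2 to 53.3) of early-positive stress-high, 36.4% (30.6 to 42.6) of early-positive stress-low, 32.0% (24.6 to 40.1) of early-negative stress-high and 23.3% (18.9 to 28.3) of early-negative stress-low CD4 class cells. For the CD8 class the same shares were 40.8% (36.4 to 45.4), 22.4% (17.5 to 28.1), 30.3% (24.9 to 36.1) and 17.7% (14.5 to 21.2).

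Within single clusters few of the cytokine genes were separate. Among CD4 class cells 3 of 120 gene and cluster comparisons were (0.373% over all genes), 2 of them in cluster 3 and 1 in cluster 10, with none in clusters 2, 4, 6 and 7. Among CD8 class cells 6 of 100 were (0.7% over all genes), 4 in cluster 1 and 1 each in clusters 2 and 9, with none in clusters 5 and 8. Each cluster holds fewer cells than its class. In the Th2-like cluster 3, Csf2 was seen in 33.6% of early-positive and 3.92% of early-negative CD4 class cells. In the Th17-like cluster 7, Csf2 was seen in 3.64% and 2.83% and Il17a in 16.4% and 9.43%. In the CD8 cytotoxic-like cluster 1, Ifng was seen in 29.8% of early-positive and 13.7% of early-negative CD8 class cells and Tnf in 8.63% and 2.16%, while in cluster 8 Ifng was at 30.8% and 40.0%, which overlapped. The differences between clusters were not tested.

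**Figure D4:**
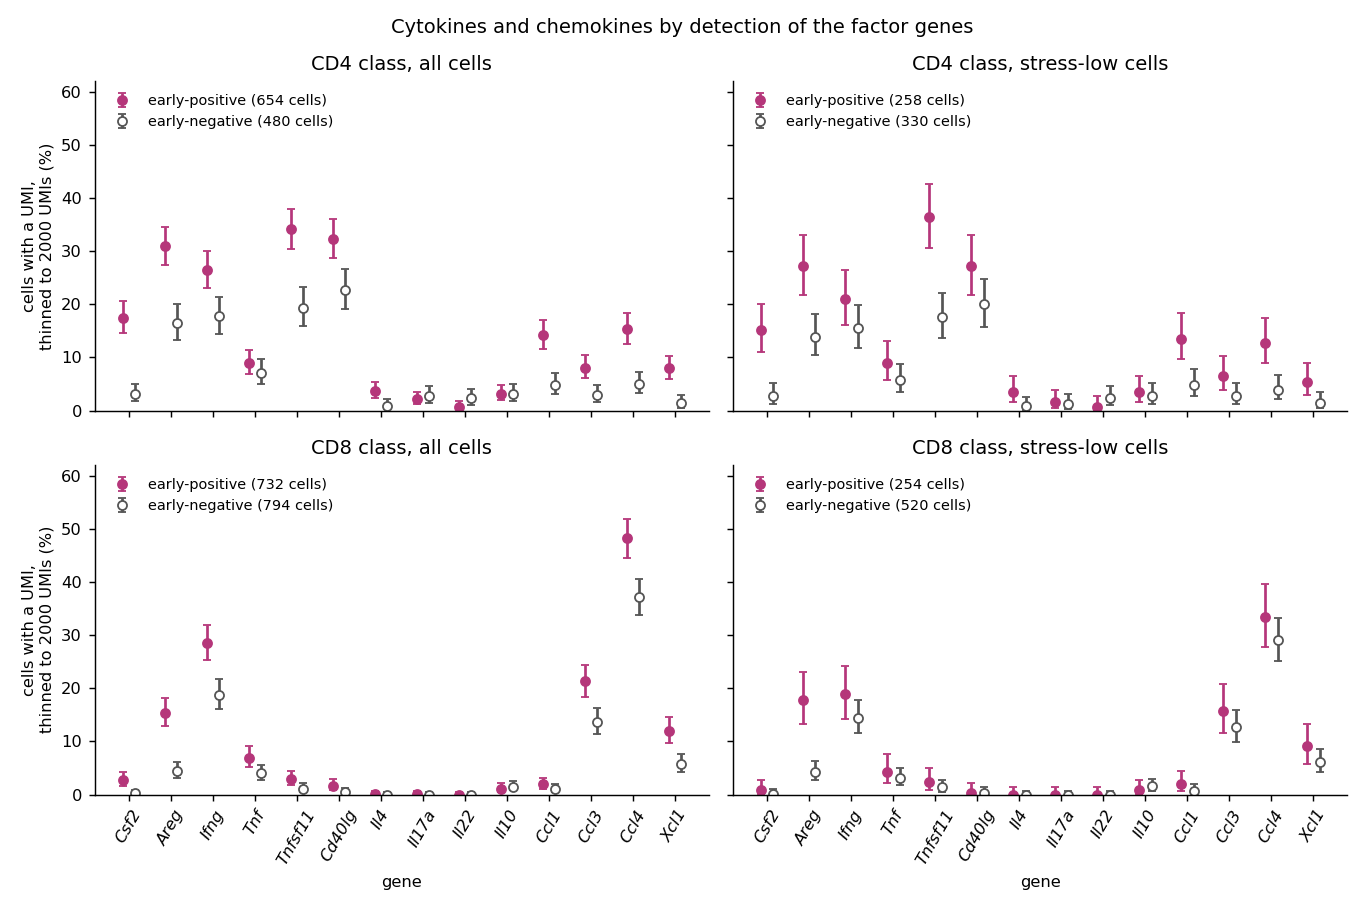
Percent of cells with a UMI of 14 cytokine and chemokine genes after thinning to 2000 UMIs, in early-positive cells (filled, left of each pair) and early-negative cells (open), for the CD4 class (top) and CD8 class (bottom), in all cells (left) and in stress-low cells (right); bars are 95% Clopper-Pearson intervals. Areg is separate in all 4 panels, at 30.9% and 16.5%, 27.1% and 13.9%, 15.4% and 4.41%, and 17.7% and 4.23%, while Ifng is separate only in the 2 left panels.

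Beyond the factors themselves, few genes differed 2-fold between early-positive and early-negative cells. For the CD4 class 45 of 7954 genes were 2-fold higher (0.566%), 39 of them besides the 6 factors that set the groups, and 10 were lower (0.126%). In CD8 class cells 21 of 8625 were higher (0.243%), 17 besides the factors, and 5 were lower (0.058%). The lists shared Areg, Ccl1, Ccr8, Cd83, Csf2, Nfkbid, Plk2, Tnfrsf9 and Xcl1, which is 23.1% of the CD4 class list and 52.9% of the CD8 class list. The counts move with the definition: with 1 cell per clonotype 18 CD4 class genes were higher, and with another random draw of the thinned UMIs 44 CD8 class genes were higher and 0 lower. Keeping 1 cell per clonotype also leaves far fewer cells and UMIs to call from, and the part of this in the lower count was not tested.

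Cd83, 1 of the 2 members that did not set the groups, was at 0.590 in early-positive and 0.122 in early-negative CD4 class cells (4.85, 3.42 to 7.04) and at 0.202 and 0.0323 in CD8 class cells (6.24, 3.64 to 11.4). Cd69 was at 5.18 and 3.28 (1.58, 1.46 to 1.71) in CD4 class cells and 3.99 and 2.80 (1.43, 1.33 to 1.53) in CD8 class cells. Within stress-low cells Cd83 kept a ratio of 3.78 (2.47 to 5.92) in CD4 class cells, whereas Cd69 stood at 1.11 (0.979 to 1.25) in CD4 class cells and 1.05 (0.924 to 1.19) in CD8 class cells. Among CD8 class cells Cd69 also turned to a log2 ratio of -0.026 without thinning and of -0.034 when the groups were set by 1 or more of Nr4a2, Nr4a3, Egr2 and Egr3 against none of them. Among stress-high CD4 class cells Cd83 had a ratio of 7.17 (3.39 to 18.2), so that it was higher with the factors in stress-high and stress-low cells alike, whereas the Cd69 difference was not detectable among stress-low cells.

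Chemokines had the highest ratios in CD4 class cells. Xcl1, which draws cross-presenting dendritic cells, was at 1.89 in early-positive and 0.109 in early-negative cells (17.3, 12.3 to 25.2; 18.2% of its UMIs in 1 cell), and Ccl1, the ligand of Ccr8, at 4.43 and 0.506 (8.76, 7.44 to 10.4). Ccl3, with 25.0% of its UMIs in 1 cell, was at 2.67 and 0.480 (5.55, 4.67 to 6.64), and Ccl4 at 5.75 and 1.24 (4.65, 4.17 to 5.2). Of the 6 measured chemokines, 5 had an interval above 1 (12.8% of all genes did) and 4 were 2-fold higher, with a list median of 2.35 on the log2 scale against -0.007 over all genes. Other genes among the highest ratios were Csf2 at 2.86 and 0.541 (5.29, 4.49 to 6.26), Csf1 at 1.49 and 0.394 (3.79, 3.11 to 4.65), Clcf1 at 0.774 and 0.211 (3.66, 2.79 to 4.87), and Penk, the enkephalin precursor, at 6.58 and 1.70 (3.87, 3.52 to 4.26). Crtam, an adhesion receptor of cytotoxic cells, had a ratio of 6.62 (3.92 to 11.9). The 2 groups also differ in cluster make-up, which these ratios do not hold. Early-positive cells were 49.8% of cluster 6 and 48.2% of cluster 8, against 19.7% of cluster 7. Penk and Xcl1 are leading genes of cluster 8, and the part of cluster make-up in the ratios was not tested.

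Receptors and feedback genes downstream of the TCR were higher in both classes. Of 26 measured TCR-induced genes, 24 had an interval above 1 in CD4 class cells (8 of them 2-fold) and all 26 in CD8 class cells (4 of them 2-fold), where 9.61% of all genes did, with medians of 1.11 and 0.88 on the log2 scale. Tnfrsf9, a costimulatory receptor, was at 2.92 in early-positive and 1.09 in early-negative CD4 class cells (2.69, 2.37 to 3.04) and at 3.43 and 1.53 in CD8 class cells (2.24, 2.05 to 2.45). Pdcd1, which encodes PD-1, was at 3.58 and 1.18 (3.05, 2.71 to 3.43) in CD4 class cells and 7.01 and 3.81 (1.84, 1.74 to 1.95) in CD8 class cells, and Tox, a factor of exhausted cells, had ratios of 1.99 (1.52 to 2.62) and 1.87 (1.61 to 2.17). Nfkbid, a nuclear inhibitor of NF-kappaB, was at 3.38 and 1.30 (2.61, 2.33 to 2.93) in CD4 class cells and 1.64 and 0.494 (3.31, 2.86 to 3.85) in CD8 class cells. Nab2, a corepressor that binds Egr proteins, had a ratio of 2.35 (1.76 to 3.18) in CD4 class cells, and Dusp14, a phosphatase that limits MAPK signals, of 2.89 (2.49 to 3.36). Dusp14 is also a leading gene of cluster 6, which is rich in early-positive cells.

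For the CD8 class the highest ratio was that of Csf2, at 0.356 in early-positive and 0.0161 in early-negative cells (22.0, 10.9 to 51.9), a gene found in few CD8 class cells. Areg was at 2.33 and 0.847 (2.75, 2.46 to 3.09), Xcl1 at 2.36 and 0.829 (2.85, 2.54 to 3.20), and the chemokine receptor Ccr8 at 0.242 and 0.0706 (3.43, 2.32 to 5.18). Kdm6b, a histone demethylase, was at 2.27 and 0.900 (2.53, 2.26 to 2.83), Fosl2 at 2.03 and 0.827 (2.45, 2.18 to 2.76), and Tnfrsf4 (OX40) at 2.51 and 1.12 (2.25, 2.03 to 2.50). Ifng, at 2.50 and 1.35 (1.84, 1.67 to 2.03), did not pass 2-fold. Cytotoxic genes were divided: of 12, 5 had an interval above 1 and 6 below (10.4% of all genes lay below), with Gzma at 16.3 and 21.6 (0.754, 0.732 to 0.777) and Gzmk at 3.58 and 5.2 (0.688, 0.646 to 0.733).

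Cycling genes, and Itgae in the CD8 class, were lower in early-positive cells, although several cycling genes turned without thinning. In CD4 class cells 11 of 12 cycling genes had an interval below 1, against 13.1% of all genes: Pclaf, a replication clamp partner, was at 1.40 in early-positive and 3.53 in early-negative cells (0.397, 0.356 to 0.441) and Aurkb, a mitotic kinase, at 0.298 and 0.810 (0.367, 0.291 to 0.462). In CD8 class cells 8 of 12 cycling genes lay below 1 (10.4% of all genes), with Pclaf at 2.21 and 2.81 (0.787, 0.725 to 0.855), and Itgae, the integrin that binds epithelial E-cadherin, was at 0.129 and 0.284 (0.454, 0.328 to 0.621). Without thinning, Pclaf (0.32 on the log2 scale), Aurkb (0.15), Rrm2 (0.47), Birc5 (0.52) and Ccna2 (0.79) had ratios above 1 in CD4 class cells, as did Pclaf (1.16) and Anln (0.93) in CD8 class cells. The 5 genes called lower in CD8 class cells rested on few cells: 88.8% of Gzme UMIs, 56.2% of Il1b, 53.9% of H2-Eb1 and 43.0% of H2-Ab1 came from 1 cell each. Median depth was 4548 UMIs in early-positive and 5075.5 in early-negative CD4 class cells, and 4718.5 and 4967 in CD8 class cells. Macrophage markers summed to 1.85 and 1.65 UMIs per 10000 in CD4 class cells, with Csf1r at 0 in the early-positive and Adgre1 at 0 in the early-negative cells, and to 0.967 and 1.72 in CD8 class cells; their part was not tested.

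Stress genes were higher in early-positive cells as well. Of the 26 stress list genes, 23 in CD4 class cells (12.8% of all genes) and 20 in CD8 class cells (9.61%) had an interval above 1, with medians of 0.72 and 0.65 on the log2 scale. Fos was at 2.87 in early-positive and 1.49 in early-negative CD4 class cells (1.93, 1.73 to 2.16), Jun at 3.08 and 1.85 (1.66, 1.5 to 1.84) and Hspa1a at 0.361 and 0.250 (1.45, 1.08 to 1.94; its log2 ratio turned to -0.14 without thinning and -0.13 with groups set without Nr4a1 and Egr1), and in CD8 class cells Hspa1a had a ratio of 1.08 (0.869 to 1.35). The 10 heat shock genes had a median of 0.32 in CD4 class cells and 0.17 in CD8 class cells. Within stress-low CD4 class cells Jun was lower in early-positive cells, at 0.910 against 1.37 (0.666, 0.545 to 0.811), and Fos remained at 1.54 (1.26 to 1.88), while 40 genes were still 2-fold higher (0.594%). Within stress-low CD8 class cells Fos stood at 1.12 (0.899 to 1.38) and Jun at 1.06 (0.882 to 1.28), and 10 genes were higher (0.133%). The comparison within stress-low cells holds the summed list only up to the class median and not each gene. Stress-low cells were chosen by the summed UMIs of these same genes, so the Fos and Jun ratios there are not an independent reading.

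**Figure D5:**
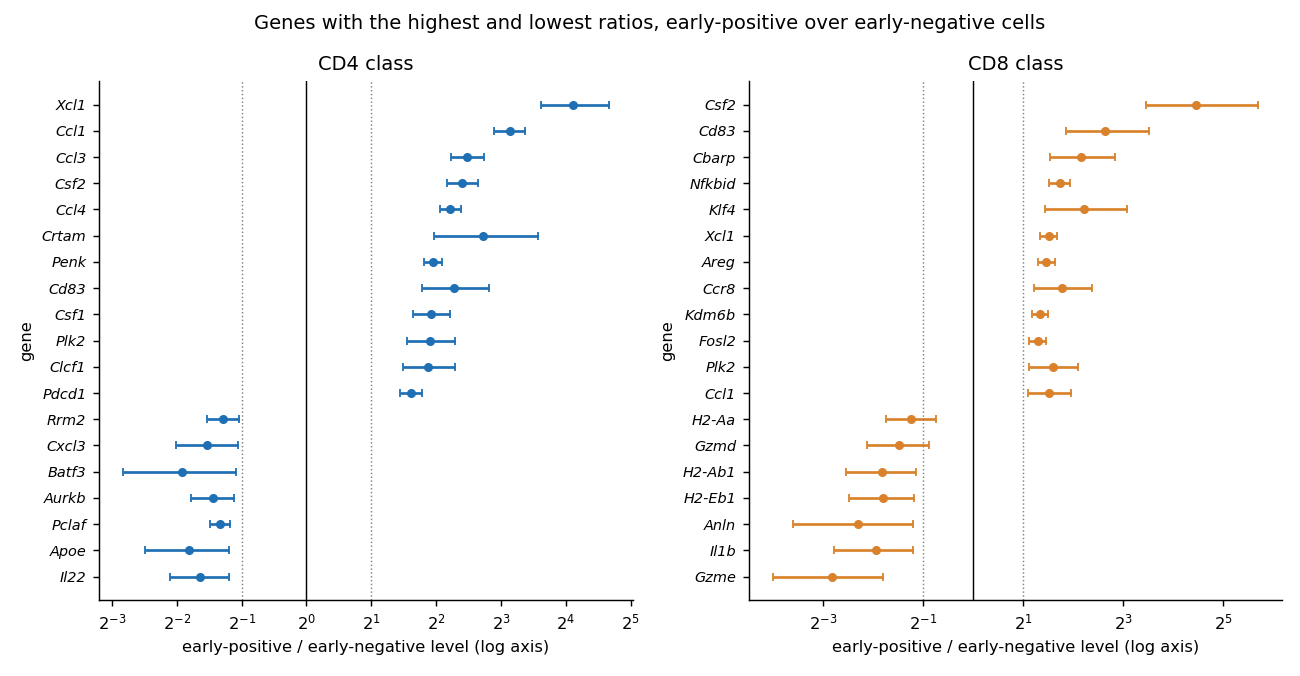
The 12 highest and 7 lowest ratios of levels (log axis; dotted lines at 2-fold) between early-positive and early-negative cells, ranked by the interval bound nearest 1, in CD4 class cells (left) and the CD8 class, without the 6 factors; bars are 95% counting intervals. Chemokines and Csf2 lead the CD4 class, from Xcl1 at 17.3, and Csf2 (22.0) and Cd83 (6.24) lead the CD8 class.

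Across cells of each class at 2000 UMIs, the genes whose thinned counts were most like the summed factors, among 4145 compared, were Junb (mean Pearson r over the classes 0.324), Nfkbid (0.255), Nfkbiz (0.239), Nfkbia (0.231), Hilpda (0.228), Bhlhe40 (0.228), Btg2 (0.224) and Jund (0.22). Single members were most like Nfkbia for Nr4a1 (0.294), Pdcd1 for Nr4a2 (0.224), Nr4a2 for Nr4a3 (0.173) and Zfp36 for Egr1 (0.198). These are weak correlations in sparse counts of 1 library and are given as a description.

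The early-positive share was read by clonotype too (cells with the same TRA and TRB chains; 2628 kept cells had one). Among CD8 class cells it was 35.5% (29.5 to 41.9) in cells of clonotypes seen once, 34.9% (27.3 to 43.1) in those of 2 to 4 cells and 27.8% (24.8 to 30.8) in those of 5 or more, and in CD4 class cells 37.6% (31.0 to 44.4), 38.6% (30.3 to 47.5) and 34.3% (30.3 to 38.4), all overlapping within a class. With clonotypes set by TRB alone, CD8 class cells gave 38.7% (32.2 to 45.5) for clonotypes seen once and 28.3% (25.8 to 30.9) for those of 5 or more cells, which were separate. The latter were 1236 cells of 62 clonotypes. The intervals treat cells of a clonotype as independent, so they do not cover the spread between clonotypes, and the part of the largest ones was not tested. Among the 10 largest clonotypes it ran from 16.7% (7.92 to 29.3) of 54 cells to 52.6% (39.0 to 66.0) of 57 cells, both with CD4 class cells and no more than 1 CD8 class cell. Cluster 4 held 26 of the 54 cells of the clonotype with the low share, and cluster 6 held 25 of the 57 cells of the one with the high share. The largest clonotype, 263 cells of which 259 were of the CD8 class, had 22.4% (17.5 to 28.0) early-positive cells.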

How the data were processed

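The RNA values are UMI counts per gene and cell barcode, deposited by the authors as whole numbers that are not normalized. The submitters' processing notes name Cell Ranger and mm10; versions are not given in the sources used here. A second deposited table lists counts of reads and UMIs per assembled TCR contig, with the authors' chain, segments and CDR3. The members, gene lists and comparisons were chosen with earlier results of these data known, and no independent support is drawn from them.

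Barcodes with under 500 genes (1) or over 10% mitochondrial UMIs (15) were left out. No doublet caller was used, and 232 kept cells had more than 1 productive TRB chain. Shares, groups and co-detection used cells thinned to 2000 UMIs (seed 1), which left out no cell; levels and ratios used all UMIs. A group without any UMI of a gene was given 3 UMIs as a lower limit. Clusters came from 2000 variable genes without the 8 members, TCR or immunoglobulin segments, with 30 components, 15 neighbours and resolution 0.8. They were named only with at least 3 markers of a list at 2-fold. Clusters 6 and 10 (4 and 3 of 6 follicular helper markers) and 11 (4 of 8 CD8 cytotoxic markers) also reached this and were left unnamed, a choice made after their values were seen. The stress medians were 23 UMIs of 2000 in CD4 class cells and 18 in CD8 class cells. Of 305 genes in 30 lists, 304 matched a symbol in the matrix.

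The genes named are the members, the 12 highest and 12 lowest ratios of each early-positive comparison by the bound nearest 1, with at least 50 UMIs and without receptor segments, mitochondrial and ribosomal genes, predicted models and the grouping genes, and up to 4 genes per list; 1 gene among them is not reported here. The 8 genes most like the factors were taken from those in at least 5% of thinned cells. Co-detection partners were chosen after their values were seen. Promoters are from RefSeq (GRCm38.p6), and chromosomes from the GENCODE annotation of mm10. Ratios were tried on simulated summed counts with known changes, drawn from the counting model that the intervals assume. That trial had no variation between cells and cannot speak for genes with many UMIs in 1 cell. Tools were Python 3.11.15, numpy 2.4.6, scipy 1.17.1, pandas 2.3.3, scanpy 1.11.5, leidenalg 0.10.2 and matplotlib 3.10.9. Alternatives covered cell filters, doublets, class and clonotype definitions, thinning, the factor set, gene filters, clustering and single deep cells.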

Additional observations from a re-analysis of the deposited data

Results flagged for a closer look

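Apoe, a lipid carrier made by macrophages, had an early-positive to early-negative ratio of 0.284 in CD4 class cells and 1.67 in CD8 class cells, with counting intervals on opposite sides of 1. Gzma, which encodes granzyme A, had ratios of 1.11 in CD4 class cells and 0.754 in CD8 class cells, again on opposite sides. Each was singled out because its direction differed between the classes. The differences were not tested, since the study has 1 pooled sample. In the CD4 class 46.0% of the Apoe UMIs came from 1 cell, and its ratio turned to 1.27 on the log2 scale without thinning.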

How the results depend on the processing

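No paired analysis was possible because the study has 1 pooled sample and no test. Intervals cover counting error only, low genes such as Egr2, Egr3 and, in CD8 class cells, Cd83 rest on few cells, doublets remain, and thinning fixes depth but discards UMIs. The mean over cells gave levels but no intervals, so it gives no counts of called genes.

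The early-positive share of 35.1% in CD4 class cells and 30.6% in CD8 class cells became 37.6% and 35.5% with 1 cell per clonotype, 19.1% and 15.5% thinned to 1000 UMIs, 46.2% and 43.5% thinned to 3000, 63.3% and 60.7% without thinning, 10.9% and 7.86% with 3 or more factors asked for, 74.2% and 66.8% with 1 or more, and 43.3% and 46.1% without Nr4a1 and Egr1. That last setting changed the factor set and the number asked for together, to 1 or more of Nr4a2, Nr4a3, Egr2 and Egr3 against none of them, so none of its values can be put down to the genes left out alone. By point estimate the CD4 class was above the CD8 class in each of these but the last. Intervals of the 2 classes were not compared in these settings, and several of the gaps are small. In the CD4 class 45 genes were higher, and 18 with 1 cell per clonotype, which leaves far fewer cells, 27 with 1 or more factors and 24 without Nr4a1 and Egr1. The 10 lower genes became 4 with 1 cell per clonotype, thinned to 3000, with another random draw or in stress-low cells, 1 with 1 or more factors, 2 without Nr4a1 and Egr1, 17 among genes with 20 or more UMIs, 5 among those with 200 or more or outside cycling clusters, and 3 without the deepest cell of each gene. In the CD8 class 21 genes were higher, and 32 thinned to 3000, 71 without thinning, 44 with another draw, 57 with 3 or more factors, 10 without Nr4a1 and Egr1 or in stress-low cells, and 13 among genes with 200 or more UMIs. The 5 lower genes became 3 without cells of several TRB chains, thinned to 1000 or 3000, or without the deepest cell of each gene, 2 without macrophage-like cells, with classes set from 2 or more UMIs, with 1 cell per clonotype or without thinning, 0 with another draw or among genes with 200 or more UMIs, 1 with 1 or more factors, and 11 in stress-low cells.

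Of 20 cytokine genes, 10 were higher in CD4 class cells and 6 when thinned to 1000, and 6 were higher in CD8 class cells and 3 without Nr4a1 and Egr1. The summed factors spanned 6.71-fold over clusters and 2.17-fold at resolution 0.4, where there are fewer clusters. The early-positive share of clonotypes of 5 or more cells minus that of single cells was -3.30 percentage points in CD4 class cells and -6.67 with clonotypes set by TRB alone. With Egr2 and Egr3 counted whatever their UMIs, 8 members were higher in stress-high CD8 class cells and 3 with heat shock genes alone, and 7 were higher in cytokine-positive CD8 class cells and 4 among stress-low cells.

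Log2 ratios that turned, beside those given above, were in CD4 class cells, without thinning, Apoe 1.27, Pclaf 0.32, Aurkb 0.15, Rrm2 0.47, Lag3 -0.075, Hspa1a -0.14, Birc5 0.52 and Ccna2 0.79, Il22 with another draw (0.71) and without Nr4a1 and Egr1 (0.46), Hspa1a without these (-0.13) and Jun in stress-low cells (-0.59). In the CD8 class, H2-Eb1 and H2-Ab1 turned thinned to 3000 (2.49 and 1.79), without thinning (2.34 and 2.32) and with another draw (2.75 and 2.09). Gzme turned without thinning (2.66), with another draw (4.27) and without its deepest cell (1.75), Il1b without thinning (3.04) and with another draw (3.79), and Anln (0.93) and Pclaf (1.16) without thinning. Cd69 turned without thinning (-0.026) and without Nr4a1 and Egr1 (-0.034). Egr1 turned between the classes with 1 cell per clonotype (-0.013). With heat shock genes alone, Cd83 turned in CD4 class cells (-0.16) and Nr4a3 (-0.054) and Cd69 (-0.011) in CD8 class cells, and without Junb Egr3 did in CD8 class cells (-0.30). In cytokine-positive CD8 class cells, Nr4a2 (-0.14), Egr1 (-0.12) and Cd83 (-0.92) turned among stress-low cells, and Cd83 (-0.15) with Ifng alone. The cause was not tested, except that leaving out 1 cell shows that the Gzme ratio rested on it. The other values moved or stayed without turning, 570 and 1494 of them for single genes and 99 counts or shares within 1.5 times or 1 interval.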
